A study of Mus musculus with 8 samples.

Results

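The genes described here were the EGF family ligands and ErbB receptors in the mouse mesenchymal cell line C3H10T1/2: the ligands *Ereg*, *Areg*, *Hbegf*, *Btc*, *Tgfa* and *Nrg1*, and the receptors *Egfr*, *Erbb2* and *Erbb3*. They were taken by gene symbol from the deposited gene table and are 9 of its 18605 genes. The list was chosen by gene family with the levels and fold changes of these genes in these libraries already known. Of the 9 genes, 8 passed the filter on low counts and were tested, and *Erbb3* did not pass. RNA was sequenced from 4 groups of 2 libraries each, to compare cells carrying an shRNA against *Nap1l2* with cells carrying a non-target control, with and without osteogenic induction. NC were control cells and KD-Nap1l2 were shRNA cells, both at day 0 without induction. NC-7d and KD-Nap1l2-7d were the control and shRNA cells after 7 days in osteogenic medium, which contains dexamethasone, so the glucocorticoid is part of every comparison of day 7 with day 0. No group was kept for 7 days without induction, so time in culture is part of these comparisons too. All groups are the same embryo-derived C3H line grown in DMEM with serum. shRNA was delivered by lentivirus per the study's methods, and the labels do not say whether replicates came from separate cultures.

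EGF family ligands are made as membrane-anchored precursors, and proteases of the ADAM family cut them free. Epiregulin (*Ereg*), amphiregulin (*Areg*), HB-EGF (*Hbegf*), betacellulin (*Btc*) and TGF-α (*Tgfa*) bind the EGF receptor (*Egfr*), some of them also ErbB4, whereas neuregulin 1 (*Nrg1*) binds ErbB3 and ErbB4. ErbB2 has no known ligand and serves as the preferred partner of the others, ErbB3 has little kinase activity of its own, and the paired receptors signal through the Ras-ERK and PI3K-Akt cascades. In mesenchymal and osteoblast-lineage cells, EGF receptor signalling is best known for maintaining proliferation and holding back osteoblast maturation.

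Library totals ran from 17420284 to 19427359 estimated counts. *Nap1l2*, the shRNA target, had 3 counts in both NC libraries, 2 and 7 in the libraries labelled KD-Nap1l2, 15 and 5 in NC-7d and 7 and 13 in those labelled KD-Nap1l2-7d. A lower level of *Nap1l2* in the shRNA libraries was therefore not detectable at this depth, and every direction below is between groups as labelled. The mesenchymal markers of the line (8 of 8 present, none at 0) summed to between 10100 and 26900 CPM (counts scaled to library size), the epithelial markers to between 1.94 and 9.17, the leukocyte markers to between 17.5 and 32.7, the endothelial markers to between 3.34 and 19.6 and the Schwann and neural markers to between 5.1 and 11.6. The mesenchymal sum moved with induction, from between 17800 and 26900 at day 0 to between 10100 and 14300 at day 7. Whether this had a part in the changes of the EGF family was not tested, and in bulk RNA fewer cells expressing a gene and less RNA per cell cannot be told apart.

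Of the ligands, 3 lie side by side on chromosome 5. In RefSeq on GRCm38.p6, *Ereg* (Entrez gene 13874) lies at chr5:91074617-91093649 on the plus strand, *Areg* (11839) at chr5:91139599-91148432 on the plus strand and *Btc* (12223) at chr5:91357261-91402994 on the minus strand. The gap from *Ereg* to *Areg* is 46 kb and that from *Areg* to *Btc* 209 kb, and the ligand gene *Epgn* (epigen) lies 39.4 kb before *Ereg*. The other members lie apart from this group, *Tgfa* on chromosome 6, *Nrg1* on 8, *Erbb3* on 10, *Egfr* and *Erbb2* on 11 and *Hbegf* on 18.

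Promoter sequence from RefSeq (GRCm38.p6, 250 bases before to 50 after the start of the gene) was held for 5 of the 9 genes, *Areg*, *Btc*, *Tgfa*, *Egfr* and *Erbb2*. The promoters of *Areg* (chr5:91139349-91139648, plus strand) and *Btc* (chr5:91402945-91403244, minus strand) are shown. Both genes belong to the chromosome 5 group, for which no promoter of *Ereg* was held. Their means were higher in the shRNA than in the control libraries at both times, but neither gene passed that test. *Btc* was called lower with induction, whereas *Areg*, with few counts, had no induction call. Capitals mark matches on either strand to the letters TGANTCA (AP-1), TGACGTCA (the cyclic AMP response element, CRE), TATAAA (the TATA box) and GGGCGG (the GC box).
Areg promoter: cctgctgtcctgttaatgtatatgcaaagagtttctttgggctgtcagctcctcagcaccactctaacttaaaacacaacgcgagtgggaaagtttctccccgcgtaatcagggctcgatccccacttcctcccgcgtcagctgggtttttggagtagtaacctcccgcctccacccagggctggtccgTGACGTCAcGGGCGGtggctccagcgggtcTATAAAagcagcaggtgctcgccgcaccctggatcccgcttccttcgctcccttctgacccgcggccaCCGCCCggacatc
Btc promoter: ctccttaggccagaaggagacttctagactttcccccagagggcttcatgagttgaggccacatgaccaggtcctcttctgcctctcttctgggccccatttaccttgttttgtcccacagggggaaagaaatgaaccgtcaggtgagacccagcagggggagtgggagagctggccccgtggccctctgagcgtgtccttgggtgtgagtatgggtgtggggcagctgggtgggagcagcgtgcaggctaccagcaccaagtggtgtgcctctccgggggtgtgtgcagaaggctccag
The *Areg* window holds the CRE at position -61 from the start of the gene, the TATA box at -31 and GC boxes at -52 and 37, and these matches do not overlap. The *Btc* window holds none of the 4 motifs. Of 27025 promoters of the same length, 1.88% hold the CRE, 14.2% the TATA box, 35.9% the GC box and 7.93% the AP-1 letters, which were in none of the 5 promoters. The *Tgfa* and *Egfr* windows hold only GC boxes, and that of *Erbb2* holds none of the 4. A match describes the letters and not the binding of a factor.

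Per length, the receptors *Egfr* and *Erbb2* and the ligand *Nrg1* were at the top of the family in NC, and *Ereg* held the same rank in KD-Nap1l2 as in NC and moved up the order in both day 7 groups. In NC, the mean FPKM (fragments scaled to transcript length and library size) was 9.67 for *Egfr*, 6.68 for *Erbb2* and 5.6 for *Nrg1*, with the libraries of *Erbb2* and *Nrg1* overlapping. *Ereg* at 2.945, *Tgfa* at 2.855 and *Btc* at 2.815 FPKM did not differ beyond the spread of their libraries, *Hbegf* followed at 2.235, and *Areg* at 0.17 and *Erbb3* at 0.095 FPKM overlapped at the bottom. In NC-7d, *Ereg* (4.88 and 5.4 FPKM) moved up only past *Nrg1* (2.97 and 5.37), and their libraries overlapped. In the libraries labelled KD-Nap1l2-7d, *Egfr* was again first with 13.28 FPKM, and *Ereg* at 9.26 was above *Erbb2* at 8.06, although 1 library of *Ereg* (8.17) lay within the range of *Erbb2* (7.77 and 8.35). *Btc* was down to 2.37 FPKM there, below *Hbegf* at 4.64 and *Tgfa* at 4.735.

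**Figure D1:**
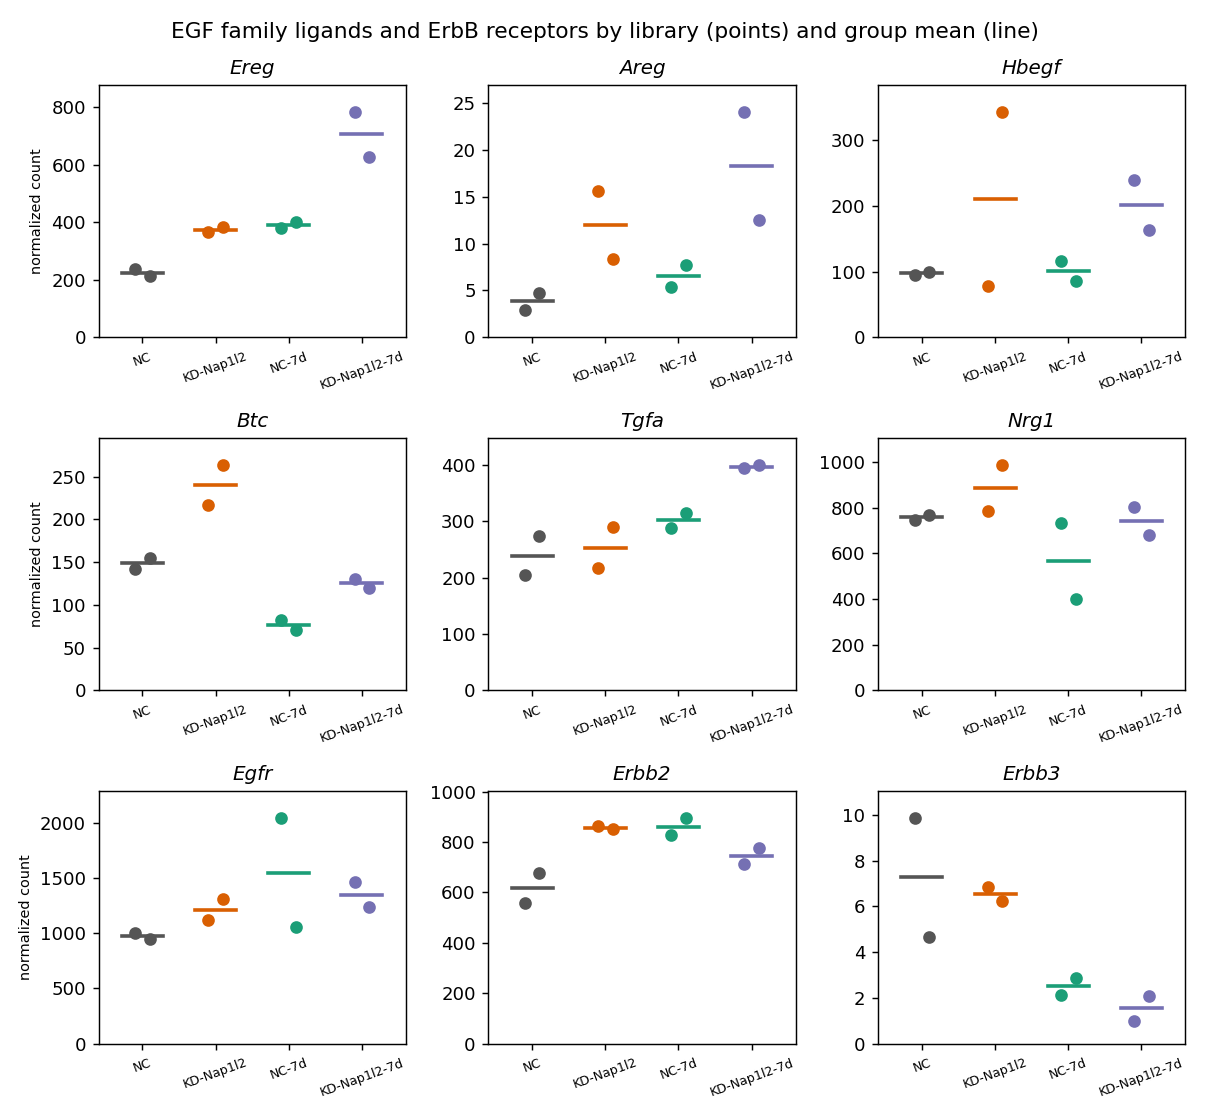
Normalized counts (TMM-scaled counts per library, linear axes from 0, 1 panel per gene) of the 9 genes in the 8 libraries. Points are libraries and lines are group means. *Ereg* was between 213 and 236 in NC and between 628 and 784 in KD-Nap1l2-7d, *Btc* was lowest in NC-7d at 70.0 and 82.4, and single libraries set the means of *Hbegf* in KD-Nap1l2 and of *Egfr* in NC-7d.

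After 7 days of induction, *Ereg* was higher and *Btc* lower than at day 0 in both the control and the shRNA cells. The other tested members did not pass the test, and *Erbb3* was not tested. In NC-7d against NC, 2 of 8 tested members were called at an adjusted p under 0.05 (quasi-likelihood test of edgeR, adjusted by the Benjamini-Hochberg method over all 13470 genes), beside 8.21% of all genes, with 1 called higher beside 4.83% and 1 called lower beside 3.38%. In KD-Nap1l2-7d against KD-Nap1l2, again 2 of 8 were called, beside 14.2% of all genes, with 1 higher beside 6.84% and 1 lower beside 7.36%. Without overlap between libraries, 5 of 8 were higher and 2 lower in NC-7d, beside 29.4% and 28.4% of all genes, and 2 of 8 were higher and 2 lower in KD-Nap1l2-7d, beside 30.8% and 30.6%. Since the members were chosen with these values known, the counts and the values below describe the family and are no independent evidence.

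*Ereg*, which encodes a ligand of the EGF receptor and ErbB4, had 236 and 213 normalized counts in NC and 379 and 401 in NC-7d. Without overlap, NC-7d was higher by a log2 fold change of 0.79 (standard error, SE, 0.15, edgeR adjusted p = 0.022). In the shRNA cells it had 366 and 382 normalized counts at day 0 and 784 and 628 at day 7. The libraries labelled KD-Nap1l2-7d were thus the highest of all 8, and the rise from day 0 was 1.89-fold (log2 fold change 0.92, SE 0.15, edgeR adjusted p = 0.00954). Leaving out any 1 of the 4 libraries of NC and NC-7d kept the *Ereg* change between 0.72 and 0.87 but raised its adjusted p to between 0.0598 and 0.119, and in the shRNA cells the call was lost without KD-Nap1l2-7d replicate 1 (0.75, edgeR adjusted p = 0.0922).

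*Btc*, which encodes betacellulin, also a ligand of the EGF receptor and ErbB4, had 142 and 155 normalized counts in NC and 82.4 and 70.0 in NC-7d. Both day 7 libraries lay below both day 0 libraries, and the log2 fold change was -0.96 (SE 0.21, edgeR adjusted p = 0.0306). In the shRNA cells it had 216 and 263 normalized counts at day 0 and 130.3 and 120.1 at day 7 (log2 fold change -0.94, SE 0.20, edgeR adjusted p = 0.0225). *Btc* levels at day 7 were thus 0.513 and 0.523 of those at day 0 in the control and shRNA cells. Without any 1 library of NC or NC-7d, the edgeR adjusted p was between 0.0718 and 0.139, and in the shRNA cells the call was lost without KD-Nap1l2 replicate 2 (0.0742) and without either KD-Nap1l2-7d replicate (0.13 and 0.152), with the change between -1.08 and -0.79 throughout. The *Btc* estimates were not whole numbers in most libraries, so the counting had divided some of its reads with another gene.

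Beside *Ereg*, *Tgfa* was the ligand nearest to a rise with induction. *Tgfa*, a ligand that binds the EGF receptor alone, had 205 and 274 normalized counts in NC, 289 and 315 in NC-7d, 217 and 289 in KD-Nap1l2 and 395 and 399.9 in KD-Nap1l2-7d. Day 7 was above day 0 without overlap in both kinds of cells, by log2 fold changes of 0.34 (edgeR adjusted p = 0.349) and 0.65 (0.0677). Neither passed the test.

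*Areg* and *Hbegf* gave no induction call. *Areg*, which encodes a low-affinity ligand of the EGF receptor, differed between day 7 and day 0 by log2 fold changes of 0.75 in the control cells and 0.60 in the shRNA cells (edgeR adjusted p = 0.546 and 0.471). For *Hbegf*, the changes were 0.06 and -0.06, with 95% intervals from -1.30 to 1.42 and from -1.36 to 1.24. These libraries thus left room for changes of more than 2-fold either way.

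*Nrg1*, which encodes the neuregulin ligand of ErbB3 and ErbB4, had 746 and 769 normalized counts in NC and 733 and 401 in NC-7d. Only NC-7d replicate 2 stood well below the rest, and the log2 fold change of -0.42 did not pass the test (edgeR adjusted p = 0.37). In the shRNA cells the groups overlapped, with 787 and 986 counts at day 0 and 804 and 681 at day 7 (log2 fold change -0.25, edgeR adjusted p = 0.541). Of 13 *Nrg1* transcripts in the transcript table, 4 were above 0 in all libraries, and 1 short transcript (NM_178591.2) held between 38.8% and 57.1% of the gene's FPKM. That share rests on between 48.1 and 175.2 estimated counts per library, of between 418 and 947 for the gene. The mean FPKM of *Nrg1* was higher in KD-Nap1l2-7d than in NC (6.465 and 5.6), although its mean normalized count was not (742 and 757).

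Among the receptors, *Egfr* had 1001 and 945 normalized counts in NC and 2043 and 1056 in NC-7d. The mean of NC-7d rested on replicate 1, and the log2 fold change of 0.67 (SE 0.28, edgeR adjusted p = 0.184) became 1.07 without NC-7d replicate 2 (adjusted p = 0.0161) and 0.12 without NC-7d replicate 1 (adjusted p = 0.771). In the shRNA cells the counts were 1117 and 1314 at day 0 and 1467 and 1235 at day 7, and the groups overlapped (log2 fold change 0.15, edgeR adjusted p = 0.744). The table holds 2 *Egfr* transcripts. The long one, with 3630 coding bases, held between 83.3% and 88.1% of the gene's FPKM by group mean, and the rest was a short transcript with 1965 coding bases, which ends before the kinase domain.

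*Erbb2*, the receptor without a ligand, had 557 and 677 normalized counts in NC, 827 and 895 in NC-7d, 864 and 850.3 in KD-Nap1l2 and 713 and 776 in KD-Nap1l2-7d. NC was the lowest group and did not overlap with any other. Day 7 was above day 0 in the control cells (log2 fold change 0.48, edgeR adjusted p = 0.0695) and below it in the shRNA cells (-0.20, edgeR adjusted p = 0.335), and neither difference passed the test.

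*Erbb3* was barely detected, with 10 and 5 counts in NC, 7 and 6 in KD-Nap1l2, 2 and 3 in NC-7d and 1 and 2 in KD-Nap1l2-7d. Each group at day 7 was at or under 3 counts per library, the level that a count of 0 still allows, and lay below its group at day 0 without overlap. The ratio of summed counts of day 7 to day 0 was 0.351 in the control cells (95% counting interval 0.0999 to 1.02) and 0.234 in the shRNA cells (0.0428 to 0.852), where the interval covers counting error only. *Erbb4*, the other receptor of neuregulins, had 1 count in each NC-7d library and 0 in the other 6.

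**Figure D2:**
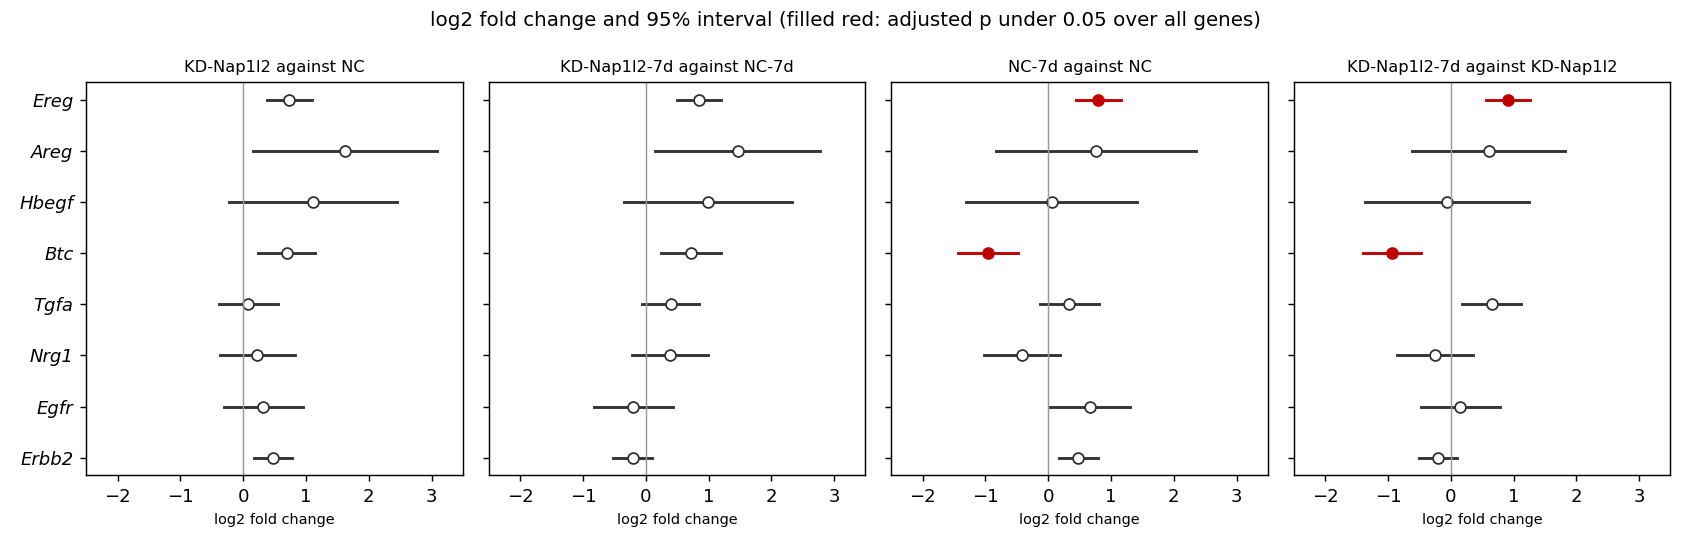
Log2 fold change (horizontal axis, with its 95% interval as a bar) of the 8 tested members in the 4 comparisons, from edgeR's fit over all genes. Filled red points passed an adjusted p under 0.05. These are *Ereg* (0.79 and 0.92) and *Btc* (-0.96 and -0.94) in the induction comparisons, while in the comparisons of shRNA and control libraries all points are open.

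Between shRNA and control libraries, the 5 member ligands of the EGF receptor each had a higher mean in the shRNA libraries at both times. None of the tested members passed the test. *Egf*, a ligand of the same receptor that is not a member, had a lower mean in the shRNA libraries at day 0. Leaving out KD-Nap1l2 replicate 2 turned *Hbegf* and *Tgfa* lower at day 0 (-0.31 and -0.14 on the log2 scale). At day 0, edgeR called 0 of 8 members beside 0.0817% of all genes, 4 of 8 had an unadjusted p under 0.05 beside 13.7%, and 6 of 8 were higher in KD-Nap1l2 without overlap beside 22% of all genes. At day 7, edgeR called 0 of 8 beside 0% of all genes, 3 of 8 had an unadjusted p under 0.05 beside 7.85%, and 5 of 8 were higher and 1 lower without overlap, beside 21% of all genes for each direction. *Ereg*, *Areg* and *Btc*, the members of the chromosome 5 group, were higher without overlap at both times, as were 6.39% of all genes. The median log2 fold change of the 8 members was 0.58 at day 0 and 0.56 at day 7, beside 0.01 and -0.01 for all genes. These medians and the counts of members above include *Areg*, which had 8 or fewer counts in every control library. It reached the filter on low counts only through the shRNA libraries, so for this member passing the filter was not independent of the difference. At both times *Areg* is among the members counted at an unadjusted p under 0.05 and among those higher without overlap. Its part in these counts, in the medians and in the chromosome 5 group is therefore no support for a difference.

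*Ereg* was 1.66-fold higher in the libraries labelled KD-Nap1l2 than in NC (log2 fold change 0.73, SE 0.15, unadjusted p = 0.00151, edgeR adjusted p = 0.115). At day 7 it was 1.81-fold higher in those labelled KD-Nap1l2-7d (log2 fold change 0.86, SE 0.15, unadjusted p = 0.000502, edgeR adjusted p = 0.443). In each comparison both shRNA libraries lay above both control libraries. DESeq2's Wald test, an alternative that called 3.41% of all genes at day 0 and 0.586% at day 7, called *Ereg* at both times (adjusted p = 0.0245 and 0.012) and no other member.

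*Btc* had log2 fold changes of 0.69 (SE 0.20, edgeR adjusted p = 0.192) at day 0 and 0.72 (SE 0.21, edgeR adjusted p = 0.508) at day 7. *Btc* was thus higher in the shRNA libraries and lower after induction, whereas *Ereg* was higher in both, and the induced shRNA cells had 125 normalized counts of *Btc*, near the 149 of NC. *Areg* had few counts, 3 and 5 in NC, 16 and 8 in KD-Nap1l2, 5 and 8 in NC-7d and 24 and 12 in KD-Nap1l2-7d. The shRNA libraries were above the controls at each time, and the ratio of summed counts was 3.15 at day 0 (95% counting interval 1.37 to 8.12) and 2.8 at day 7 (1.45 to 5.76). With the spread between libraries taken in, the log2 fold changes of *Areg* were 1.62 (SE 0.64, edgeR adjusted p = 0.318) and 1.47 (SE 0.57, edgeR adjusted p = 0.578).

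*Hbegf* had 95.5 and 99.1 normalized counts in NC but 78.3 and 343 in KD-Nap1l2. The shRNA replicates lay on either side of the controls, so the log2 fold change of 1.11 (SE 0.58, edgeR adjusted p = 0.454) was 1.82 when KD-Nap1l2 replicate 1 was left out (adjusted p = 0.0303) and -0.31 when replicate 2 was. At day 7 it had 117 and 86.3 normalized counts in NC-7d and 239.6 and 164 in KD-Nap1l2-7d. These groups did not overlap, and the log2 fold change was 0.99 (SE 0.58, edgeR adjusted p = 0.737).

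The remaining members differed less. *Tgfa* had log2 fold changes of 0.08 at day 0 and 0.39 at day 7, *Nrg1* 0.23 and 0.39, and *Egfr* 0.32 and -0.20, with edgeR adjusted p between 0.662 and 0.924. The day 7 value of *Egfr* was 0.36 without NC-7d replicate 1. *Erbb2* was higher in KD-Nap1l2 than in NC (log2 fold change 0.47, SE 0.13, edgeR adjusted p = 0.185) and lower in KD-Nap1l2-7d than in NC-7d (-0.21, SE 0.13, edgeR adjusted p = 0.768), without overlap in either case.

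When the difference between shRNA and control libraries was compared between day 7 and day 0, edgeR called 0 of 8 members, beside 0% of all genes (DESeq2 also called 0 of 8, beside 0.728%), and 1 of 8 had an unadjusted p under 0.05, beside 7.04%. That member was *Erbb2*, with a difference of -0.69 on the log2 scale (SE 0.19, unadjusted p = 0.00691, edgeR adjusted p = 0.52). For *Ereg* the difference was 0.12 (95% interval -0.38 to 0.62) and for *Btc* 0.03 (-0.63 to 0.68). The shRNA difference in these ligands could thus have been larger or smaller at day 7 by about these amounts.

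**Figure D3:**
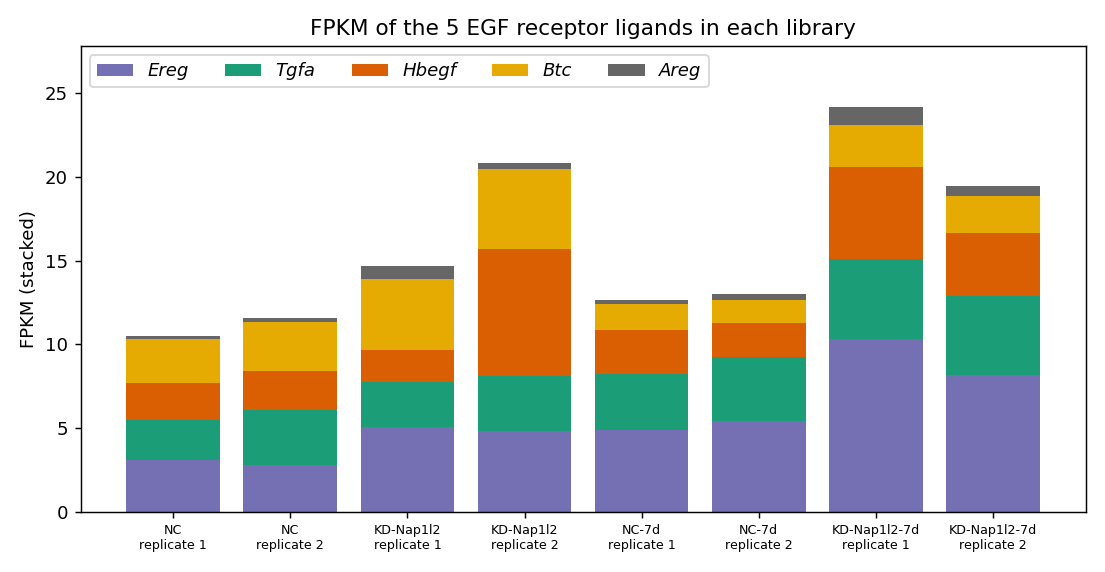
FPKM (vertical axis, stacked, from 0) of the 5 member ligands of the EGF receptor, without *Egf*, in each of the 8 libraries. The sum was highest in KD-Nap1l2-7d replicate 1 (24.21) and lowest in NC replicate 1 (10.48), *Ereg* made up the largest part of each day 7 library, and *Hbegf* was the largest part in KD-Nap1l2 replicate 2.

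The 5 ligands of the EGF receptor summed to 10.48 and 11.56 FPKM in NC, 14.69 and 20.85 in KD-Nap1l2, 12.66 and 13.03 in NC-7d and 24.21 and 19.47 in KD-Nap1l2-7d. Each pair of shRNA libraries lay above its controls, as the sum follows from the single genes, and in KD-Nap1l2 replicate 2 *Hbegf* alone gave 36.4% of it. At day 0, *Ereg* held between 23.1% and 34.3% of the sum and *Btc* between 23.0% and 29.2%. At day 7, the share of *Ereg* was between 38.5% and 42.8% and that of *Btc* between 10.2% and 12.1%. Within day 7, the shares of *Ereg* and *Areg* were higher and that of *Tgfa* was lower in KD-Nap1l2-7d than in NC-7d without overlap, whereas those of *Btc* and *Hbegf* overlapped. These differences in share were not tested. A sum of transcript levels does not give the amount of ligand released.

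Other ligands of the family were scarce. *Egf* itself had between 24 and 56 counts per library and *Nrg4* between 5.19 and 18.63, and neither was called in any comparison. In KD-Nap1l2, *Egf* was lower than in NC without overlap (log2 fold change -0.45, edgeR adjusted p = 0.603), as were 21.2% of all genes. At day 7 its shRNA and control libraries overlapped (log2 fold change 0.18, edgeR adjusted p = 0.949). *Nrg2* had between 2 and 10.07 counts, *Epgn* between 0 and 3 and *Nrg3* between 0 and 1.95, and these were not tested. *Nrg4* had the lowest unadjusted p of these, 0.0167 in KD-Nap1l2-7d against NC-7d, at -1.54 on the log2 scale (SE 0.51, edgeR adjusted p = 0.529). *Epgn*, the neighbour of *Ereg*, was thus close to 0. On the outer sides of the group, *Mthfd2l*, a gene of folate metabolism before *Epgn*, had between 159 and 223 counts in all libraries, and *Parm1*, after *Btc*, had 62 and 59 in NC, 28 and 19 in KD-Nap1l2, 139 and 357 in NC-7d and 245 and 298 in KD-Nap1l2-7d. Before *Mthfd2l*, *Cxcl1* ranged from 614 to 667 counts over the day 0 libraries. After induction it reached 1350 and 1978 with the control, against 4376 and 3191 with the shRNA. *Cxcl5*, farther out, ranged from 343 to 940 at day 0, then 2729 and 2812 (control) and 4543 and 4002 (shRNA). Like *Ereg*, these genes were thus higher after induction, and higher with the shRNA at day 7. At day 0 their shRNA and control libraries overlapped, unlike those of *Ereg*. All these neighbours were singled out after their values had been seen.

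Around the receptors, 79 further genes of the pathway were listed, of which 74 were tested. In NC-7d against NC, 7 of 74 were called, 9.46% of them beside 8.21% of all genes, with 6 higher and 1 lower. In KD-Nap1l2-7d against KD-Nap1l2, 8 of 74 were called, 10.8% beside 14.2% of all genes, and each was higher. In the comparisons of shRNA and control libraries at day 0 and day 7 and in the difference between them, edgeR called 0 of the 74, beside 0.0817%, 0% and 0% of all genes. At an unadjusted p under 0.05 there were 10, 6 and 3 of the 74, beside 13.7%, 7.85% and 7.04% of all genes. DESeq2 called 5, 0 and 1, beside 3.41%, 0.586% and 0.728%. Shares of called genes in the pathway after induction were thus near those of all genes. They also rested on single libraries, with 1 called in the control cells without NC replicate 1 and 4 without NC replicate 2, and 3 and 4 called in the shRNA cells without KD-Nap1l2-7d replicate 1 and without replicate 2.

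**Figure D4:**
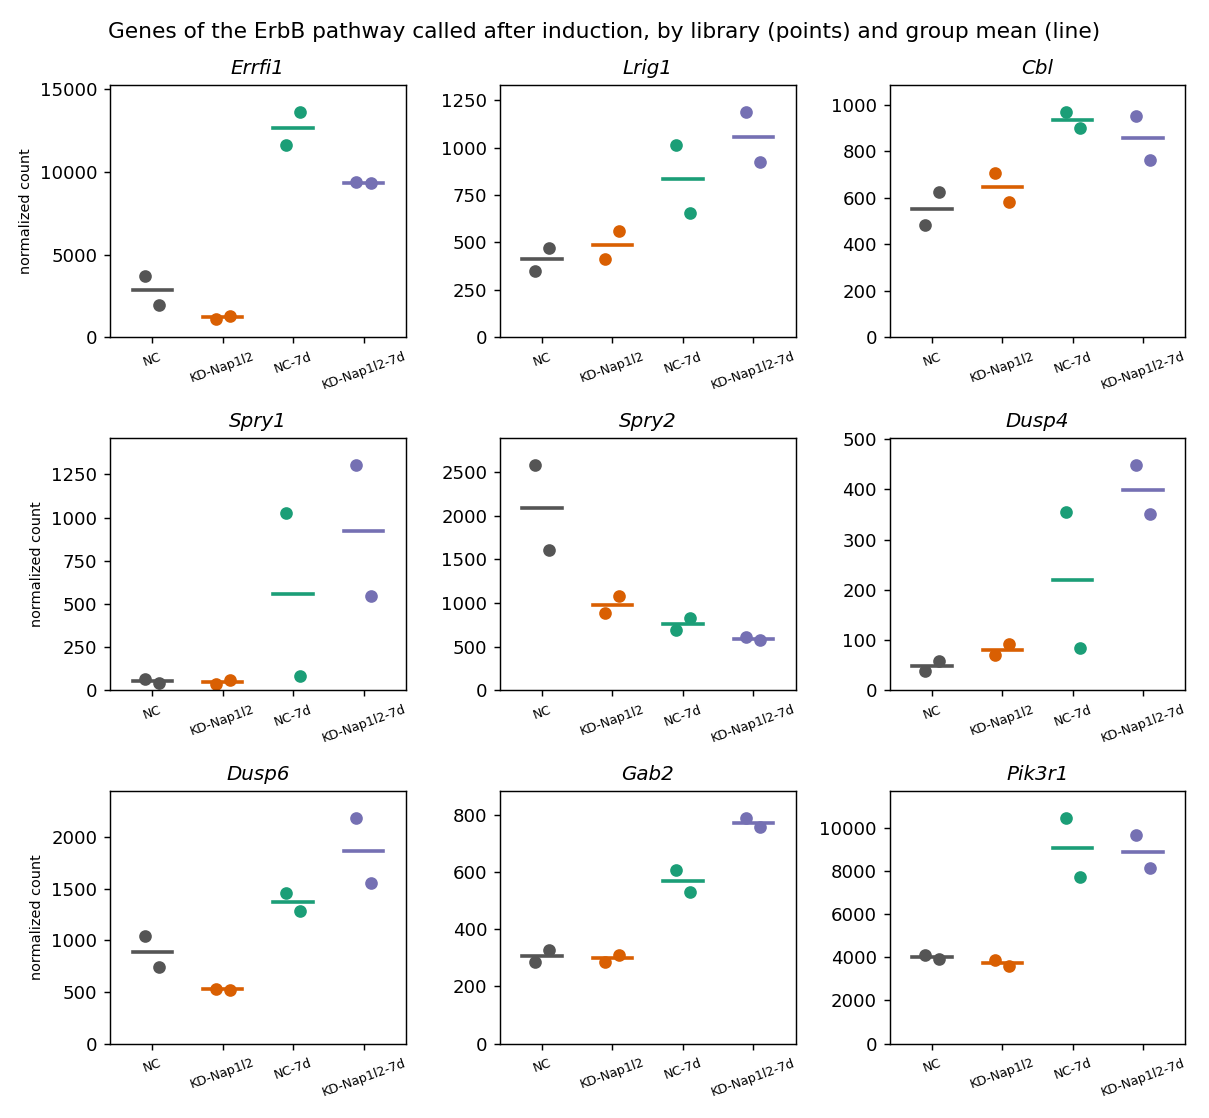
Normalized counts (linear axes from 0, 1 panel per gene) of 9 of the pathway genes called after induction, by library (points) and group mean (lines). *Errfi1* rose from between 1085 and 3705 at day 0 to between 9297 and 13621 at day 7, *Spry2* was highest in NC at 2581 and 1605, and the NC-7d libraries of *Spry1* and *Dusp4* lay far apart.

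An inhibitor of the receptor gave the largest rise among the listed genes that passed the test in the control cells. *Errfi1*, which encodes Mig6, a protein that binds the kinase domain of the EGF receptor and blocks it, had 3705 and 1973 normalized counts in NC and 11624 and 13621 in NC-7d (log2 fold change 2.15, SE 0.28, edgeR adjusted p = 0.00566). In the shRNA cells it had 1085 and 1306 at day 0 and 9385 and 9297 at day 7 (log2 fold change 2.97, SE 0.29, edgeR adjusted p = 0.00136). The shRNA libraries lay below the controls at both times, by log2 fold changes of -1.25 (edgeR adjusted p = 0.121) and -0.43 (0.758). *Errfi1* is also known as a glucocorticoid-responsive gene, and dexamethasone, differentiation and time in culture cannot be told apart in these groups. Of 11 inhibitors, *Cbl*, a ubiquitin ligase that sends activated receptors to degradation, was the other one called in the control cells (0.76, edgeR adjusted p = 0.0406). *Lrig1*, a membrane protein that lowers receptor levels, was the other one called in the shRNA cells (1.125, edgeR adjusted p = 0.0295) and stood at 1.02 in the control cells (0.0553).

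Of 6 tested shedding genes, *Adam9*, a membrane protease that can cut HB-EGF, rose in the control cells (log2 fold change 0.87, SE 0.16, edgeR adjusted p = 0.0181), and none was called in the shRNA cells. *Adam17* and *Adam10*, the main sheddases of these ligands, had log2 fold changes of 0.10 and 0.01 in the control cells and 0.09 and -0.35 in the shRNA cells, with edgeR adjusted p between 0.156 and 0.968. Of 11 adaptors, *Gab2*, a docking protein for PI3K, rose in both (0.89 and 1.38, edgeR adjusted p = 0.0103 and 0.00167), and *Plcg1*, phospholipase C gamma, in the control cells (0.55, edgeR adjusted p = 0.0266). Of 9 PI3K-Akt genes, *Pik3r1*, the regulatory subunit of PI3K, rose in both (1.18 and 1.25, edgeR adjusted p = 0.00874 and 0.00531). None of the 10 genes of the Ras-ERK cascade was called in any comparison. Counts within single lists, here, for the inhibitors above and for the ERK genes below, stand beside the shares of all genes called after induction. These were 8.21% in the control cells and 14.2% in the shRNA cells.

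The ERK feedback genes, whose products dampen ERK and whose transcripts follow its activity in many cells, did not move as 1 group. *Spry2*, a Sprouty inhibitor, fell in the control cells from 2581 and 1605 normalized counts to 695 and 830.3 (log2 fold change -1.46, SE 0.23, edgeR adjusted p = 0.0103), and was the only one of the 9 called there. In the shRNA cells, 3 of the 9 rose, beside 6.84% of all genes called higher there. The phosphatases *Dusp6* and *Dusp4* rose by log2 fold changes of 1.83 (edgeR adjusted p = 0.0027) and 2.30 (0.0384), and the Sprouty gene *Spry1* rose by 4.23 (SE 1.06, edgeR adjusted p = 0.0367), from 37.2 and 61.4 normalized counts to 1303 and 545. In NC-7d, *Spry1* had 1029 and 85.3 normalized counts and *Dusp4* 355 and 83.4, so their changes of 3.31 and 2.15 there did not pass the test (edgeR adjusted p = 0.0928 and 0.0715). At day 0, *Spry2*, *Spry4* and *Dusp6* were lower without overlap in the libraries labelled KD-Nap1l2 than in NC, by log2 fold changes of -1.09, -1.19 and -0.76 (edgeR adjusted p = 0.11, 0.233 and 0.179), while *Dusp4*, *Spred1* and *Spred2* were higher without overlap, by 0.72, 0.12 and 0.28 (0.665, 0.807 and 0.524). The 9 feedback genes thus split into 3 lower and 3 higher, beside 21.2% and 22% of all genes, and none passed the test. Of 16 early genes that respond to ERK, *Myc* alone was called, in the shRNA cells after induction (0.61, edgeR adjusted p = 0.0455).

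Of the genes averaging 50 or more normalized counts, those whose log2 CPM followed each member most closely over the 8 libraries were *Ddx19a* for *Ereg* (Pearson's r = 0.982), *Golm1* for *Areg* (0.961), *Lonp1* for *Hbegf* (0.979), *Oog1* for *Btc* (0.987), *Map3k3* for *Tgfa* (0.992), *Cdc42ep3* for *Nrg1* (0.978), *Oxnad1* for *Egfr* (0.985) and *Hdgf* for *Erbb2* (0.969). The next nearest were *Snx5* and *Zfp180* for *Ereg* (0.969 and 0.968) and *Ptpn13* and *Dlx5*, a homeobox gene of the osteoblast lineage, for *Btc* (both 0.972). No EGF family gene was among the 3 nearest of any member. The 8 points fall into 4 groups, each pair sharing its treatment, and each gene was picked for its high correlation, so these are descriptions.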

How the data were processed

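The authors deposited an estimated count and an FPKM value for every gene and transcript of each library. The submitters' processing notes name BWA, Bowtie2 and RSEM and the build GRCm38.p6, without versions, and the role of each aligner is not given in the sources used here. Estimated counts, as deposited, are not normalized, and 41.1% of genes hold one that is not whole. FPKM values, as deposited by the authors, are scaled to length and library. Deposited tables of the authors' own comparisons hold log2 fold changes, p-values and q-values and were not used.

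Counts were rounded, scaled by TMM and filtered by filterByExpr, which kept 13470 of 18605 genes. All 8 libraries were fitted together by group with edgeR 4.0.16 in R 4.3.3 (quasi-likelihood test, Benjamini-Hochberg adjustment over all tested genes, calls at an adjusted p under 0.05). Standard errors are the log2 fold change over the square root of F. The fit was varied with DESeq2 1.42.0, with RLE size factors, without a filter, with at least 10 counts in every library, with a replicate block, with only the libraries compared, with limma 3.58.1 on log2(FPKM + 1) and log2(FPKM + 0.1), and without each library in turn. The fits were tested on simulated data. An exact permutation test of 2 against 2 libraries cannot give a p below 0.333. Since no label gives separate cultures, p-values measure only the spread between these libraries, which may be technical. Intervals of count ratios and the limit of 3 counts cover counting error only.

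The members and gene lists were chosen with earlier results of these data known. Named were all members, *Nap1l2*, the other ligands and *Erbb4*, up to 4 called genes per list and comparison with the largest change, and the 3 genes most correlated with each member. *Lrig1* in the control cells, *Adam10*, *Adam17*, *Spry4*, *Spred1*, *Spred2*, *Mthfd2l*, *Parm1*, *Cxcl1* and *Cxcl5*, and values of called genes in comparisons that did not call them, were added after their values were seen.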

Additional observations from a re-analysis of the deposited data

Results flagged for a closer look

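*Erbb2* stood out because its shRNA libraries lay above both controls at day 0 and below both controls at day 7. The difference at day 7 minus that at day 0 was -0.69 on the log2 scale (standard error 0.19, unadjusted p = 0.00691). The difference itself was tested and did not pass over all 13470 genes (edgeR adjusted p = 0.52), and the adjusted p ran from 0.25 to 1 over the alternatives. The same libraries put day 7 above day 0 in the control cells and below it in the shRNA cells. The 2 replicates of each group differed by at most 677 against 557 normalized counts.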

How the results depend on the processing

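The replicate numbers did not pair the libraries: deviations of replicate 1 from the group mean correlated between -0.0612 and 0.104 for the 6 pairs of groups. With the replicate block, calls over all genes in KD-Nap1l2 against NC fell from 11 to 4, called members in NC-7d against NC from 2 to 1 (*Btc*, edgeR adjusted p = 0.0502), and *Tgfa* gained a call in KD-Nap1l2-7d against KD-Nap1l2 (edgeR adjusted p = 0.048).

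Over the settings that kept all libraries of a comparison, 292 of 305 values of single members kept their direction and side of the threshold. In KD-Nap1l2 against NC, calls over all genes were 460 with DESeq2, 160 without a filter, 4 with at least 10 counts, 0 with only the libraries compared (1494 at an unadjusted p under 0.05), and 22 and 5 with limma on log2(FPKM + 1) and log2(FPKM + 0.1). DESeq2 called 1 member there and 1 at day 7, with 79 calls over all genes at day 7 and 98 in the difference between times, where no filter gave 1. With only the libraries compared, edgeR called 0 members in NC-7d against NC (*Ereg* at an adjusted p of 0.0504 and *Btc* at 0.0729, both at an unadjusted p under 0.05). Pathway genes called in KD-Nap1l2 against NC were 5 with DESeq2 and 2 without a filter, in NC-7d against NC 13 and 12, in the difference 1 with DESeq2, and in KD-Nap1l2-7d against KD-Nap1l2 5 with limma on log2(FPKM + 0.1). *Hbegf* in KD-Nap1l2-7d against KD-Nap1l2 turned from -0.06 to 0.041 with the replicate block and to 0.161 and 0.251 with limma. In the difference between times, limma on log2(FPKM + 1) turned *Areg* to 0.0838, *Hbegf* to 0.123 and *Btc* to -0.0778, and log2(FPKM + 0.1) turned *Hbegf* to 0.201.

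Leaving out 1 library in turn, calls over all genes ran from 0 to 562 in KD-Nap1l2 against NC, 0 to 1 in KD-Nap1l2-7d against NC-7d, 122 to 926 in NC-7d against NC, 305 to 2200 in KD-Nap1l2-7d against KD-Nap1l2 and 0 to 19 in the difference. Called members ran from 0 to 1, from 0 to 1 and from 0 to 2 in the first, the third and the fourth of these, and called pathway genes from 0 to 3, 1 to 7 and 3 to 8. The 562 calls came without KD-Nap1l2 replicate 1 and the 19 without NC-7d replicate 1, and the lone library of a group was assumed to vary like the others. Log2 fold changes that changed sign ran from -0.314 to 1.82 for *Hbegf* and from -0.141 to 0.305 for *Tgfa* in KD-Nap1l2 against NC, from -0.596 to 0.355 for *Egfr* in KD-Nap1l2-7d against NC-7d, from -0.172 to 0.262 for *Hbegf* in NC-7d against NC, and from -0.767 to 1.37 for *Hbegf* in KD-Nap1l2-7d against KD-Nap1l2. In the difference they ran from -0.0478 to 0.266 (*Ereg*), -0.697 to 0.372 (*Areg*), -0.825 to 1.31 (*Hbegf*), -0.109 to 0.176 (*Btc*), -0.208 to 0.663 (*Nrg1*) and -0.918 to 0.0348 (*Egfr*). The cause was not tested. With 2 libraries a group and few counts, differences in *Areg* and *Erbb3* were limited by depth.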
